A study of Mus musculus with 10 samples.

Results

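The cytotoxic effector genes described here were Gzma, Gzmb, Gzmk, Prf1, Nkg7, Fasl, Klrg1, Cx3cr1 and Cxcr6. They are 9 of the 19505 genes with a symbol on the array, named by symbol and each read by 1 probe set, and all 9 passed the filter on low values. Transcript levels came from 10 one-colour arrays of total RNA, given as log2 values after RMA normalization. The cells introduced were CD4+ T cells transduced with either oncogenic Vav1 or GFP. The recipients were immunocompromised mice, examined 6 months later. The labels give the strain as C57BL/10 and the genotypes as WT + Oncogenic Vav1 and WT + GFP, with tissue as the only other difference between groups. There were 4 oncogenic Vav1 spleen arrays, 2 GFP spleen arrays, 2 oncogenic Vav1 lymph node arrays and 2 GFP lymph node arrays. Of the 7 animals named, ONCO2, ONCO3 and CTL2 gave both tissues. The sources used here do not state which immune cells the hosts still had, which promoter drove Vav1, or the ages of the mice.

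CD4+ T cells usually help other immune cells, and killing is best known from CD8+ T cells and natural killer (NK) cells. Killer cells store granzymes, which are serine proteases, and perforin, which forms pores, in secretory granules that they release onto a target. They can also carry Fas ligand, which triggers the death receptor Fas. CD4+ T cells can acquire this program after long stimulation. Klrg1, Cx3cr1 and Cxcr6 are surface receptors used to recognise effector T cells, and Cx3cr1 is also carried by monocytes.

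The samples are labelled as CD4+ T cells, but the arrays carried abundant transcripts of other cells. The B cell gene Cd79a lay at or above percentile 95.3 of the genes on every array and the myeloid gene Lyz2 at or above percentile 99. Cd4 lay at or above percentile 73.5 and Cd8a, which CD8+ T cells carry, at or above percentile 76.9. In such bulk RNA, a change in the number of cells of a type and a change in RNA per cell cannot be told apart. Vav1 itself was at 9.99 to 10.30 in oncogenic Vav1 spleen, against 9.63 and 9.83 in GFP spleen. It was at 10.17 and 9.27 in oncogenic Vav1 lymph node, against 9.52 and 9.69 in GFP lymph node, and it passed the test in neither tissue (adjusted p = 0.14 and 0.80 by limma). The lower value belongs to oncogenic Vav1 lymph node replicate 2, from animal ONCO3, an array that stands apart in most results below. Nothing in the labels says whether the replicates came from separate transfers, so p-values measure the spread between these arrays.

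In the spleen, Gzmb, Gzmk, Prf1, Nkg7 and Fasl rose with oncogenic Vav1, between 2.08-fold and 32.6-fold. Gzma did not move with them. That made 5 of 9 genes higher and none lower, against 17.1% of the 13393 genes tested that were higher, 9.77% that were lower and 26.8% in all (limma, adjusted p under 0.05). The arrays of the construct groups did not overlap for 7 of the 9, all higher (these 5 with Klrg1 and Cxcr6), against 30.3% of genes tested higher, 25.2% lower and 55.6% in all. The median log2 difference of the 9 genes was 1.06, against 0.00 for all genes tested. Without animal ONCO3, 8 of the 9 passed in the spleen, with Klrg1 and Cxcr6 also higher and Gzma lower, but so did 5849 of all genes tested, against 3596 with all arrays.

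**Figure D1:**
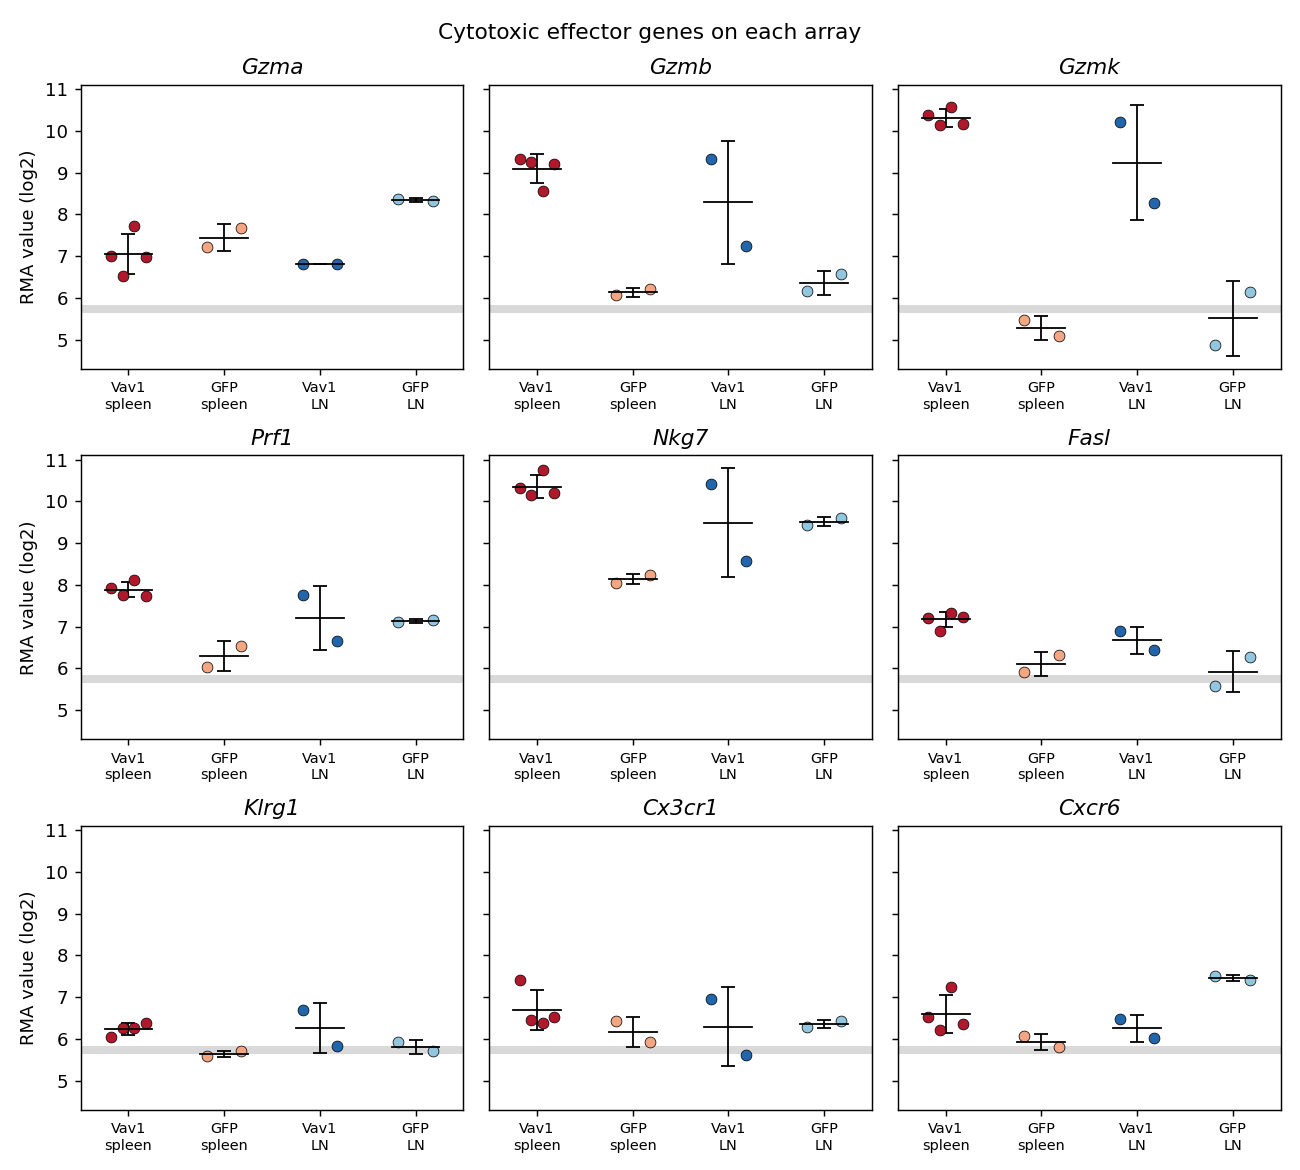
RMA value (log2) of each gene on each array (points) in the 4 groups (LN is lymph node, Vav1 is oncogenic Vav1), with lines at group means, SD bars, and a grey band over the 40th percentiles of the 10 arrays, 5.64 to 5.84. Gzmk and Gzmb lie higher in both oncogenic Vav1 groups than in either GFP group, while Gzma lies highest in the GFP lymph node.

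Gzmk, a granzyme that cuts after basic residues, had 10.37, 10.13, 10.58 and 10.17 in oncogenic Vav1 spleen, against 5.48 and 5.09 in GFP spleen. The GFP arrays were below the 40th percentile of their own arrays, so the size of the difference rests on the background level there. The oncogenic Vav1 mean was 10.31 ± 0.21 (SD, n = 4) and the GFP mean 5.28 ± 0.28 (SD, n = 2). The log2 difference was 5.03 (SE 0.47, 95% interval 3.99 to 6.07, limma adjusted p = 0.00018), which is 32.6-fold. No other member moved as far.

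Gzmb, the granzyme that cuts after aspartate and activates caspases, had 9.33, 9.26, 8.57 and 9.20 in oncogenic Vav1 spleen, against 6.06 and 6.20 in GFP spleen. The groups did not overlap, and the lowest oncogenic Vav1 array, replicate 3, stood apart from the other three. The log2 difference was 2.96 (SE 0.45, limma adjusted p = 0.0016), or 7.81-fold.

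Gzma, a granzyme with the same preference for basic residues as Gzmk, had 7.01, 6.52, 7.71 and 6.99 in oncogenic Vav1 spleen, against 7.21 and 7.68 in GFP spleen. These groups overlapped. The log2 difference was -0.39 (SE 0.27, 95% interval -0.98 to 0.20, limma adjusted p = 0.29), an interval that holds no rise of the size seen for Gzmb or Gzmk. Without oncogenic Vav1 spleen replicate 3 it was -0.61 and passed (adjusted p = 0.048, range over all alternatives 0.013 to 0.79).

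The 250 bases before and 50 after the start of these 3 granzyme genes are shown because 2 of them rose together in both tissues while Gzma, which lies next to Gzmk on chromosome 13, did not. The sequences are from RefSeq (GRCm38.p6), 5′ to 3′ on the strand of the gene. Capitals mark matches, on either strand, to GGTGTG (the core read by T-box factors such as Eomes and Tbx21), TGTGGT (read by Runt factors) and TGANTCA (read by AP-1).
Gzmk, chr13:113180916-113181215, minus strand: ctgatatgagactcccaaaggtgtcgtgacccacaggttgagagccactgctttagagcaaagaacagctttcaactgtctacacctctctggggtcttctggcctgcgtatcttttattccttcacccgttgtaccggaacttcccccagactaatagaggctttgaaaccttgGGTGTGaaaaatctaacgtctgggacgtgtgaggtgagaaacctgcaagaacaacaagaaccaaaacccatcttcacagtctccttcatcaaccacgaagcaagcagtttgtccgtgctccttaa
Gzmb, chr14:56262285-56262584, minus strand: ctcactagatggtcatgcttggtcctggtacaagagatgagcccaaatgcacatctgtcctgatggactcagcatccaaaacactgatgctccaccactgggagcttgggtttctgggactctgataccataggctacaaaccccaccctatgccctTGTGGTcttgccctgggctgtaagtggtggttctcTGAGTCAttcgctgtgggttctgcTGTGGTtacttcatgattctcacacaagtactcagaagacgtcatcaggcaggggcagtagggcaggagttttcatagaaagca
Gzma, chr13:113100932-113101231, minus strand: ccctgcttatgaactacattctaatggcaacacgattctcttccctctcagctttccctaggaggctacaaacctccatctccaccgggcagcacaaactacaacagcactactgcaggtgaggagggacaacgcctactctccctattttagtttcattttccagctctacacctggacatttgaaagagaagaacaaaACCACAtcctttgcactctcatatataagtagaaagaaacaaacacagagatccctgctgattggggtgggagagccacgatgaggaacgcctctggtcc
The Gzmk window held 1 T-box match, the Gzmb window 2 Runt matches and 1 AP-1 match, and the Gzma window 1 Runt match, with no overlaps between matches. RefSeq windows were matched for 8 of the 9 genes, all but Klrg1. Among those 8, a T-box match was found for 3 (Gzmk, Nkg7 and Fasl), against 19.0% of all 32851 windows. A Runt match was found for 6 (Gzma, Gzmb, Prf1, Nkg7, Cx3cr1 and Cxcr6), against 16.8% of windows, and an AP-1 match for Gzmb alone, against 7.8%. A match describes the letters in the window and was not tested as a binding site.

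Prf1 encodes perforin, the pore through which granzymes enter a target. It had 7.92, 7.76, 8.12 and 7.73 in oncogenic Vav1 spleen, against 6.04 and 6.54 in GFP spleen. The groups were apart, with a log2 difference of 1.59 (SE 0.26, limma adjusted p = 0.0025), or 3.01-fold. Nkg7 encodes a granule membrane protein needed for full granule release. It had 10.33, 10.14, 10.74 and 10.20 in oncogenic Vav1 spleen, against 8.04 and 8.23 in GFP spleen, and again did not overlap. The log2 difference was 2.22 (SE 0.39, limma adjusted p = 0.0031), or 4.65-fold.

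Fasl, the death ligand, rose less, with a log2 difference of 1.06 (SE 0.22, limma adjusted p = 0.0074), or 2.08-fold. It had 7.20, 6.90, 7.32 and 7.24 in oncogenic Vav1 spleen, against 5.91 and 6.31 in GFP spleen. The groups did not overlap, but the call was lost once GFP spleen replicate 1 was left out (0.85, adjusted p = 0.098, range over all alternatives 0.00064 to 0.30).

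The 3 surface receptors did not pass in the spleen. Klrg1, an inhibitory receptor for cadherins, had 6.04 to 6.39 in oncogenic Vav1 spleen, against 5.59 and 5.70 in GFP spleen (log2 difference 0.60, SE 0.22, adjusted p = 0.063). Its groups did not overlap, and its GFP arrays were at the level called background. It passed when either oncogenic Vav1 lymph node array was left out (adjusted p = 0.0081 and 0.0078), which changes only the shared spread, in a range of 0.0078 to 0.90 over all alternatives. Cxcr6, the receptor of the chemokine Cxcl16, had 6.53, 6.22, 7.23 and 6.36 in oncogenic Vav1 spleen, against 6.07 and 5.80 in GFP spleen (0.65, SE 0.26, adjusted p = 0.084). Its GFP arrays lay close to their own 40th percentiles (5.84 and 5.80), so that size rests partly on the background level. It too passed without either of those lymph node arrays (adjusted p = 0.037 and 0.036, highest over all alternatives 0.33). Cx3cr1, the receptor of fractalkine, had 7.41, 6.46, 6.39 and 6.52 in oncogenic Vav1 spleen, against 6.43 and 5.92 in GFP spleen. These arrays overlapped, and its difference of 0.52 had a 95% interval of -0.29 to 1.34 (adjusted p = 0.31).

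A property of the arrays moved with the construct in the spleen. The median of the 5222 negative control probe sets was 5.43 to 5.55 in oncogenic Vav1 spleen, against 5.87 and 5.69 in GFP spleen. With this median as a covariate, Gzmk still passed in the spleen (3.80, adjusted p = 0.015), while Gzmb (1.22, adjusted p = 0.064), Prf1 (0.78, adjusted p = 0.15), Nkg7 (1.09, adjusted p = 0.18) and Fasl (0.54, adjusted p = 0.30) did not. The range of adjusted p over all alternatives was 7.1e-09 to 0.015 for Gzmk, 2e-09 to 0.064 for Gzmb, 4.6e-06 to 0.15 for Prf1 and 4.2e-09 to 0.18 for Nkg7. Within groups, this median differed most between the oncogenic Vav1 lymph node arrays (5.27 and 5.57). Those arrays also differed by 2.08 for Gzmb, 1.95 for Gzmk, 1.84 for Nkg7, 1.09 for Prf1 and 0.45 for Fasl. The covariate fit leans on that pair, so it cannot separate the background from what else sets those arrays apart. The part of this background in the spleen results was not tested further.

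In the lymph node, Gzmk and Gzmb again rose with oncogenic Vav1, while Gzma and Cxcr6 fell. Prf1, Nkg7, Fasl, Klrg1 and Cx3cr1 did not pass. That made 2 of 9 genes higher, against 7.87% of the genes tested, and 2 of 9 lower, against 10.8%, with 18.7% of genes passing in all. Groups did not overlap for Gzmk, Gzmb and Fasl as higher and for Gzma and Cxcr6 as lower, against 24.2% of genes tested higher, 28.8% lower and 53% in all. The median log2 difference of the 9 genes was 0.08, against -0.02 for all genes tested. These counts moved with single animals: without ONCO3, 6 were higher and 2 lower, with 3371 of all genes passing, and without GFP lymph node replicate 1 only Gzmk passed, with 1040 of all genes, against 2500 with all arrays.

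**Figure D2:**
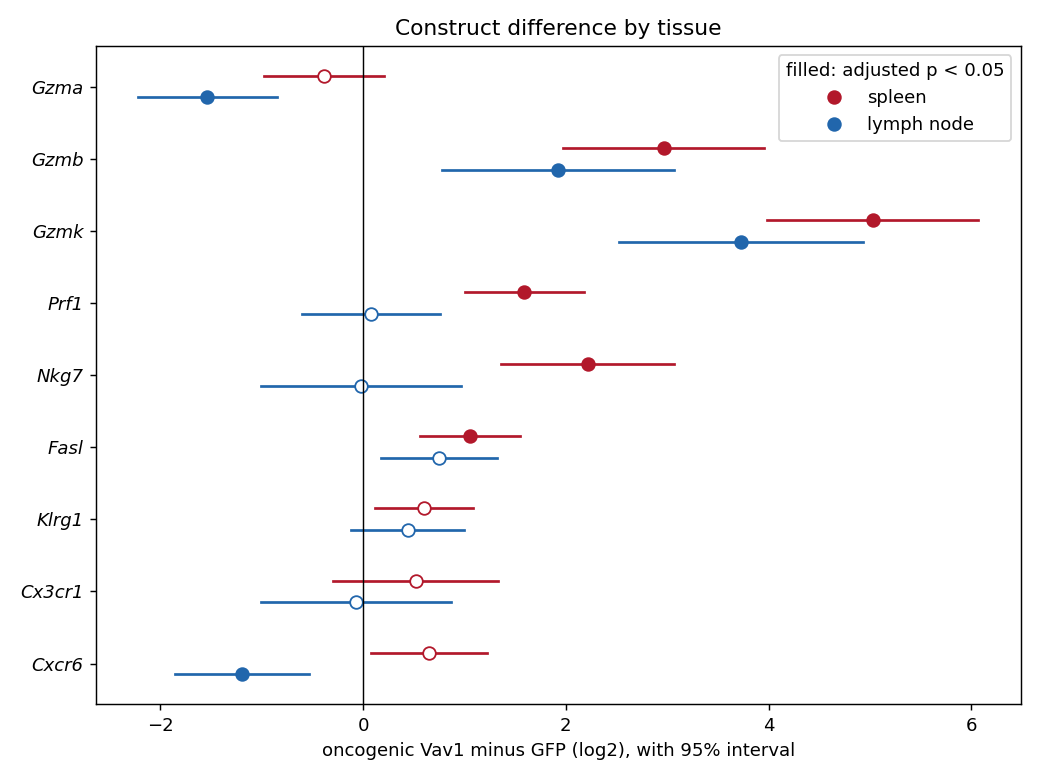
Log2 difference, oncogenic Vav1 minus GFP, for each gene in spleen (red) and lymph node (blue), with the 95% interval of the limma fit as a line and filled points where the adjusted p was under 0.05. Gzmk and Gzmb lie to the right of 0 in both tissues, and Gzma and Cxcr6 lie to the left in the lymph node.

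Gzmk had 10.22 and 8.27 in oncogenic Vav1 lymph node, against 4.88 and 6.15 in GFP lymph node. Both oncogenic Vav1 arrays lay above both GFP arrays, although each pair was widely spread. The log2 difference was 3.73 (SE 0.54, limma adjusted p = 0.0011), or 13.3-fold, again from a GFP mean near background. Leaving out 1 array gave values from 2.75, without oncogenic Vav1 lymph node replicate 1, to 4.71, without replicate 2. Fitted on the 4 lymph node arrays alone it did not pass (adjusted p = 0.084, range over all alternatives 4.9e-07 to 0.084).

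Gzmb had 9.33 and 7.25 in oncogenic Vav1 lymph node, against 6.16 and 6.57 in GFP lymph node. The log2 difference of 1.93 (SE 0.52, limma adjusted p = 0.026), or 3.80-fold, depended on which oncogenic Vav1 array was kept. It was 0.88 without replicate 1 (adjusted p = 0.024) and 2.97 without replicate 2 (adjusted p = 5.8e-06). Wherever a lymph node array or a GFP spleen array is left out, or animal ONCO3, a group is left with 1 array, and the p-value assumes that this array varies like the other groups. The Gzmb difference did not pass without GFP lymph node replicate 1 (1.72, adjusted p = 0.16), without replicate 2 (2.13, adjusted p = 0.089) or with the lymph node arrays alone (adjusted p = 0.23). The range over all alternatives was 8.9e-08 to 0.23.

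Gzma had 6.81 and 6.80 in oncogenic Vav1 lymph node, against 8.37 and 8.32 in GFP lymph node. These groups were tight and far apart, with a log2 difference of -1.54 (SE 0.31, limma adjusted p = 0.0067), which is 2.90-fold lower. Without GFP lymph node replicate 1 the difference was -1.51 and did not pass (adjusted p = 0.055), in a range of 0.00028 to 0.055 over all alternatives. Cxcr6 had 6.48 and 6.03 in oncogenic Vav1 lymph node, against 7.50 and 7.40 in GFP lymph node. It was lower by 2.29-fold (log2 difference -1.19, SE 0.30, limma adjusted p = 0.019). It did not pass without GFP lymph node replicate 1 (-1.14, adjusted p = 0.11) or replicate 2 (-1.25, adjusted p = 0.087), with array weights (adjusted p = 0.073) or with the lymph node arrays alone (adjusted p = 0.068), in a range of 0.0035 to 0.11 over all alternatives.

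Nkg7 had 10.41 and 8.57 in oncogenic Vav1 lymph node, against 9.43 and 9.59 in GFP lymph node. The GFP arrays lay between the oncogenic Vav1 arrays, and the difference of -0.02 (SE 0.45, adjusted p = 0.98) was the mean of opposite deviations. With replicate 2 left out it was 0.90 (adjusted p = 0.0065), and without replicate 1 it was -0.94 (adjusted p = 0.0032). Prf1 behaved alike, with 7.75 and 6.66 in oncogenic Vav1 lymph node, against 7.10 and 7.16 in GFP lymph node (0.08, SE 0.31, adjusted p = 0.90). It was 0.62 without replicate 2 (adjusted p = 0.069) and -0.47 without replicate 1 (adjusted p = 0.14). Over all alternatives the adjusted p ranged from 0.00021 to 1.0 for Nkg7 and from 0.045 to 0.97 for Prf1, which passed only when animal ONCO3 was left out in both tissues.

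Fasl had 6.90 and 6.45 in oncogenic Vav1 lymph node, against 5.58 and 6.27 in GFP lymph node (0.75, SE 0.26, adjusted p = 0.071). It passed once oncogenic Vav1 lymph node replicate 2 was left out (0.98, adjusted p = 0.025), without GFP lymph node replicate 2 (1.10, adjusted p = 0.04) and with the negative control covariate (adjusted p = 0.036), in a range of 0.02 to 0.43 over all alternatives. Klrg1 had 6.68 and 5.83 in oncogenic Vav1 lymph node, against 5.93 and 5.70 in GFP lymph node (0.44, SE 0.25, adjusted p = 0.27). Here too the array of animal ONCO3 was the lower one, and without it the difference passed (0.87, adjusted p = 0.012, highest over all alternatives 0.98). Cx3cr1 had 6.95 and 5.62 in oncogenic Vav1 lymph node, against 6.29 and 6.43 in GFP lymph node, and its difference was -0.07 (SE 0.42, adjusted p = 0.94).

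All 9 genes were higher on oncogenic Vav1 lymph node replicate 1 than on replicate 2, by 0.01 for Gzma to 2.08 for Gzmb, with a median of 1.09. The median over all genes tested was 0.07, and 56.9% of them were higher on replicate 1. Markers of several cell types also differed between these arrays. The mean of 9 T cell markers was 8.68 on replicate 1 and 7.62 on replicate 2, and Cd3e, a chain of the T cell receptor complex, was at 10.28 and 8.50. Means were also higher on replicate 1 for monocyte and macrophage markers (9.57 and 8.87), neutrophil markers (9.57 and 8.82), plasmacytoid dendritic cell markers (8.58 and 8.07) and B cell markers (9.73 and 9.35). Within the plasmacytoid list the arrays were close for Siglech (6.63 to 6.76) and Clec10a (6.87 to 7.01). They were further apart for Tcf4 (10.18 to 11.32), Bst2 (9.26 to 10.13), Ccr9 (5.80 to 6.43) and Ly6d (9.52 to 9.94). Means were lower on replicate 1 for erythroid markers (8.92 and 10.96), proliferation markers (9.16 and 10.04) and NK markers (6.13 and 6.33). Within the NK list, Klrb1c (4.06 and 5.63), Klrd1 (6.27 and 6.89) and Ncr1 (4.87 and 5.17) were lower on replicate 1. Klrb1c and Ncr1 lay below the 40th percentile of both arrays. The arrays were close for Klrk1 (6.23 to 6.24), Klre1 (6.38 to 6.40) and Klrc1 (6.84 to 6.94). They spanned 5.50 to 5.87 for Klri2, 6.86 to 7.10 for Cd160 and 7.09 to 7.81 for Cd244a. The part of these cell types in the difference between the arrays was not tested.

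**Figure D3:**
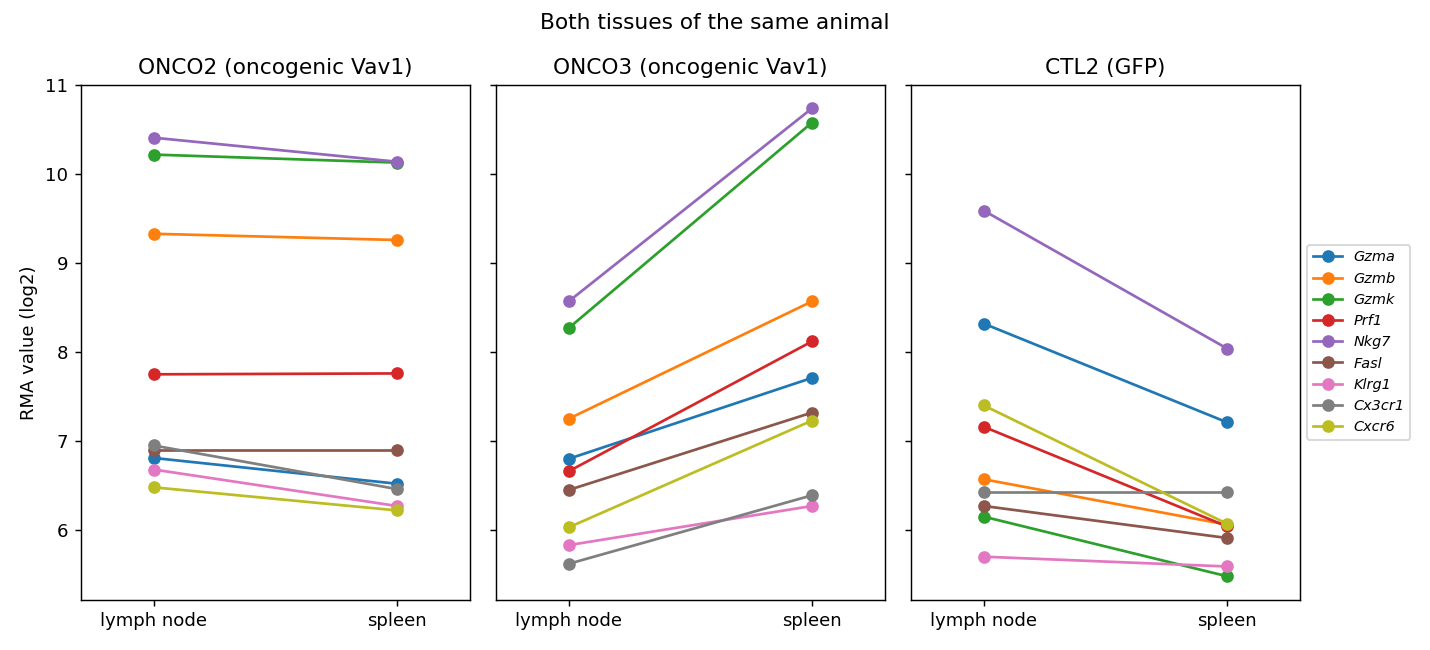
RMA values on the log2 scale of the 9 genes in lymph node and spleen of the 3 animals that gave both tissues, with a line joining the values of a gene. The lines are nearly flat in ONCO2, run higher in spleen in ONCO3 and lie higher in lymph node for most genes in CTL2.

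The animals that gave both tissues show this without any model. In ONCO2 the lymph node minus spleen difference lay between -0.01 for Prf1 and 0.49 for Cx3cr1, and that of Gzmk was 0.09. In ONCO3 all 9 genes were lower in the lymph node, between -0.45 for Klrg1 and -2.32 for Gzmk. In CTL2, the GFP animal, Nkg7 was 1.54 higher in the lymph node, Cxcr6 1.33, Prf1 1.12 and Gzma 1.11, while Cx3cr1 did not differ to 2 decimals. Among oncogenic Vav1 arrays, the spread (SD, or range where given) was larger in lymph node than in spleen for Gzmk (1.38 and 0.21), Gzmb (1.47 and 0.35), Nkg7 (8.57 to 10.41 in lymph node and 10.14 to 10.74 in spleen), Prf1 (0.77 and 0.18), Cx3cr1 (0.94 and 0.48), Klrg1 (0.60 and 0.15) and Fasl (0.32 and 0.18). It was smaller in lymph node for Gzma (0.01 and 0.49) and Cxcr6 (0.32 and 0.45).

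Whether the construct effect differed between tissues was tested as an interaction, with the animal as a random block. Nkg7 and Cxcr6 passed, both with a lower value in the lymph node than in the spleen. For Nkg7 the construct difference was -0.02 in lymph node and 2.22 in spleen, and for Cxcr6 it was -1.19 in lymph node and 0.65 in spleen, of opposite sign. These 2 of 9 stood against 7.11% of genes tested that were lower in this sense and 0.933% that were higher. For Cxcr6 the difference of effects was -1.84 (SE 0.39, adjusted p = 0.017). Leaving out GFP spleen replicate 2 (-1.70, adjusted p = 0.081) or either GFP lymph node array (-1.80 and -1.88, adjusted p = 0.088 and 0.062) ended that call, in a range of 0.0011 to 0.088 over all alternatives. For Nkg7 it was -2.22 (SE 0.59, adjusted p = 0.045), a call that was lost under 11 of 20 alternatives, with adjusted p between 2.1e-06 and 0.15. These included leaving out either GFP spleen array (adjusted p = 0.14 and 0.12), either GFP lymph node array (adjusted p = 0.15 each) or oncogenic Vav1 spleen replicate 1, 3 or 4 (adjusted p = 0.09, 0.094 and 0.077). The Nkg7 value was -1.30 without oncogenic Vav1 lymph node replicate 2 and still passed (adjusted p = 0.0027). Prf1 lay just outside the threshold (-1.49, SE 0.41, adjusted p = 0.051), and Gzma (-1.13, adjusted p = 0.13), Gzmk (-1.27, adjusted p = 0.31) and Gzmb (-1.05, adjusted p = 0.40) did not pass. Without oncogenic Vav1 lymph node replicate 1, 7 of the 9 genes passed, as did 4201 of all 13393 genes tested. Without animal ONCO3, 4 of the 9 passed, as did 2726 of all genes, against 1077 with all arrays. Without oncogenic Vav1 spleen replicate 2, 4 of the 9 passed, as did 1048 of all genes.

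The tissues were also compared within each construct. In GFP mice Cxcr6 was 2.88-fold higher in lymph node than in spleen (log2 1.52, SE 0.30, limma adjusted p = 0.0058). The spleen values, 6.07 and 5.80, lay close to the 40th percentiles of those arrays (5.84 and 5.80), so the fold rests partly on the background level. Cxcr6 was the only one of 9 genes that passed there, against 11.6% of genes tested that were higher, 4.41% lower and 16% in all. That call was lost without GFP spleen replicate 2 (1.38, adjusted p = 0.055) or GFP lymph node replicate 1 (1.48, adjusted p = 0.058), in a range of 1e-05 to 0.058 over all alternatives. Nkg7 (1.36, adjusted p = 0.062), Gzma (0.89, adjusted p = 0.084) and Prf1 (0.82, adjusted p = 0.097) did not pass. These 3 and Cxcr6 had both lymph node arrays above both spleen arrays, against 34.2% of genes tested higher without overlap, 33% lower and 67.3% in all. All 3 passed without oncogenic Vav1 lymph node replicate 1 or 2, when 4274 and 4280 of all genes did, against 2144 with all arrays, with adjusted p from 2.6e-05 for Nkg7 to 0.023 for Gzma, while over all alternatives the highest adjusted p was 0.60 for Nkg7, 0.83 for Prf1 and 0.34 for Gzma. In oncogenic Vav1 mice none of the 9 passed (limma, 1 at an unadjusted p under 0.05, Prf1 at -0.67), and 0.0373% of all genes did. Fasl alone did not overlap there, lower in lymph node by a narrow margin (6.90 and 6.45, against 6.90 to 7.32), against 7.33% of genes tested higher without overlap, 8.03% lower and 15.4% in all. Without oncogenic Vav1 lymph node replicate 1, 6 of the 9 passed as lower in lymph node, where 2247 of all 13393 genes tested were lower and 1565 higher. The GFP lymph node is in the lymph node, interaction and GFP tissue comparisons, so these results share arrays.

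Across the 4 groups, the order of mean levels differed between genes. Gzmk had 10.31 ± 0.21 (SD, n = 4) in oncogenic Vav1 spleen, 9.24 ± 1.38 (SD, n = 2) in oncogenic Vav1 lymph node, 5.51 ± 0.90 (SD, n = 2) in GFP lymph node and 5.28 ± 0.28 (SD, n = 2) in GFP spleen. Gzmb followed that same order. The neighbours of equal construct overlapped in both genes. Gzma ran nearly the other way, with 6.81 ± 0.01 (SD, n = 2) in oncogenic Vav1 lymph node, 7.05 ± 0.49 (SD, n = 4) in oncogenic Vav1 spleen, 7.44 ± 0.33 (SD, n = 2) in GFP spleen and 8.34 ± 0.04 (SD, n = 2) in GFP lymph node. Cxcr6 was also highest in GFP lymph node, at 7.45 ± 0.07 (SD, n = 2), and lowest in GFP spleen, at 5.93 ± 0.19 (SD, n = 2).

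Other genes of granule killing were read from lists chosen with earlier results of these data known. The counts of these lists, and of the marker lists further below, stand against the shares of all genes tested. Those were 17.1% higher and 9.77% lower in spleen, and 7.87% higher and 10.8% lower in lymph node. A count near these shares says nothing particular about a list. Of 13 measured genes for granule loading and release, 9 rose and 1 fell in the spleen, with a median of 0.81 against 0.00 for all genes. The rises counted Fgl2 (2.29, SE 0.23, adjusted p = 0.00026), which is a secreted protein of effector and regulatory T cells rather than a part of the granule machinery. Among them were also Stx11, a syntaxin needed for granule fusion (1.56, SE 0.21, adjusted p = 0.00098), and the chaperone Calr (0.86, SE 0.15, adjusted p = 0.0031). Ctsc, the protease that activates granzymes, rose by 1.21 (SE 0.27, adjusted p = 0.0085). Lyst, a regulator of granule size, fell by 0.58 (SE 0.13, adjusted p = 0.012). In the lymph node 1 of the 13 rose, again Stx11 (1.39, SE 0.24, adjusted p = 0.0029), and 1 fell, the cathepsin Ctsw (-0.87, SE 0.26, adjusted p = 0.043).

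All 6 measured genes of the inhibitor list rose in the spleen, with a median of 1.66. Serpinb9, which blocks granzyme B and protects killer cells from their own granules, rose by 2.20 (SE 0.27, adjusted p = 0.00058). Serpina3f, a serpin, rose by 2.77 (SE 0.34, adjusted p = 6e-04), and Serpinb6a by 1.02 (SE 0.12, adjusted p = 0.00054). In the lymph node only Serpina3f rose (1.70, SE 0.39, adjusted p = 0.013), and Serpinb9 was at 0.41 (adjusted p = 0.40).

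Of 13 transcription factors tied to the cytotoxic program, 6 rose and none fell in the spleen, with a median of 0.73. Eomes, a T-box factor of killer cells, rose by 2.58 (SE 0.41, adjusted p = 0.0019), Prdm1, which encodes Blimp-1, by 1.41 (SE 0.27, adjusted p = 0.0045), and Id2 by 1.01 (SE 0.14, adjusted p = 0.0013). Tbx21, the T-box factor T-bet, rose in the spleen (1.09, SE 0.29, adjusted p = 0.02) and was the only one of the 13 to rise in the lymph node (1.36, SE 0.33, adjusted p = 0.018). Zbtb7b, which encodes the CD4 lineage factor ThPOK and holds the cytotoxic program down, was at -0.17 in spleen (adjusted p = 0.43) and -0.28 in lymph node (adjusted p = 0.32).

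Of the other granzymes, Gzmc, Gzmf and Gzmg lay below the 40th percentile of every array and were not tested. Gzmm did not pass in the spleen (-0.06, adjusted p = 0.77) and rose in the lymph node (0.58, SE 0.18, adjusted p = 0.043), and Gzmn passed in neither. In the death receptor list 2 of 9 genes rose in the spleen, the death ligand Tnfsf10 (1.03, SE 0.13, adjusted p = 7e-04) and Tnf (1.26, SE 0.36, adjusted p = 0.027), and Fas was at 0.67 (adjusted p = 0.11). In the lymph node 2 of these 9 fell, Tnfsf10 (-0.68, SE 0.15, adjusted p = 0.01) and Casp8 (-0.49, SE 0.14, adjusted p = 0.032). The median was 0.01 in spleen and -0.27 in lymph node.

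The ligands of the 3 receptors moved apart. Cxcl16, the ligand of Cxcr6, rose in the spleen (1.82, SE 0.33, adjusted p = 0.0035) and was at -0.64 in the lymph node (adjusted p = 0.28). Cdh2, a cadherin, fell in the lymph node (-1.15, SE 0.21, adjusted p = 0.0037), as did Cx3cl1, the ligand of Cx3cr1 (-0.60, SE 0.19, adjusted p = 0.049). In oncogenic Vav1 lymph node, Cdh2 lay below the 40th percentile of every array. Of 14 genes that often accompany the program, 10 rose and 1 fell in the spleen and 3 rose and 1 fell in the lymph node. Interferon gamma, Ifng, was among the rises in both (3.30, SE 0.48, adjusted p = 0.0014 and 2.12, SE 0.56, adjusted p = 0.024), as was the chemokine Ccl3 (4.99, SE 0.56, adjusted p = 0.00044 and 2.46, SE 0.65, adjusted p = 0.024). In GFP spleen, Ifng and Ccl3 lay below the 40th percentile of every array, so the sizes of their spleen differences rest on the background level. Cd226, an activating receptor, fell in both (-1.44, SE 0.28, adjusted p = 0.0048 and -1.60, SE 0.32, adjusted p = 0.0067).

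**Figure D4:**
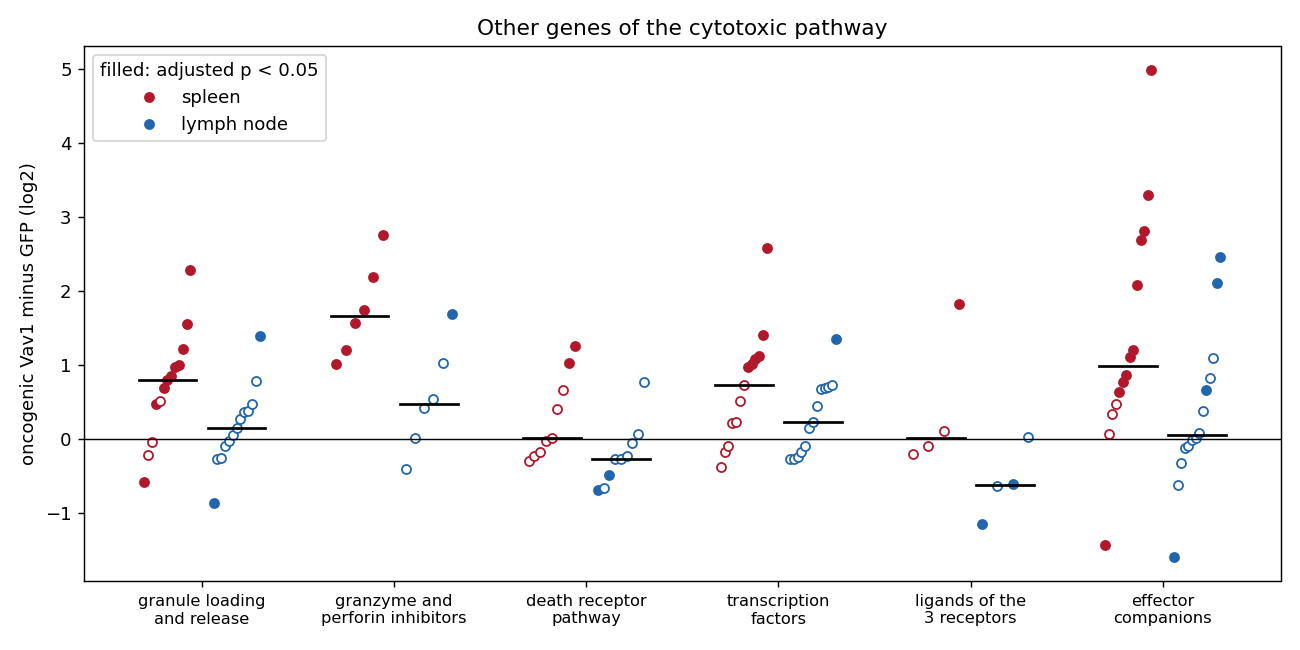
Log2 difference, oncogenic Vav1 minus GFP, of each tested gene of 6 lists, in spleen (red) and lymph node (blue), with black lines at list medians and filled points where the adjusted p was under 0.05. The 6 inhibitor genes are all filled in spleen, and 1 of them is filled in lymph node.

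Markers of other cells that carry these genes were read on the same arrays. Their counts are to be set against the shares of all genes given above. The mean of 9 NK cell markers was 6.36, 6.33, 6.89 and 6.34 in oncogenic Vav1 spleen, against 6.78 and 6.80 in GFP spleen. Only replicate 3, from ONCO3, lay above the GFP spleen arrays. In the lymph node this mean was 6.13 and 6.33 with oncogenic Vav1, against 6.94 in both GFP lymph node arrays. Of the 9, none passed as higher in either tissue, 2 fell in the spleen (median -0.17) and 3 fell in the lymph node (median -0.49). Ncr1, the defining receptor NKp46, was at 5.19, 5.43, 6.10 and 5.22 in oncogenic Vav1 spleen, against 6.58 and 6.71 in GFP spleen. It fell by 1.16 (SE 0.24, adjusted p = 0.007). Of those oncogenic Vav1 arrays, only replicate 3 lay above its 40th percentile, so the size of the fall rests on the background level. In the lymph node Ncr1 fell by 2.10 (SE 0.28, adjusted p = 0.00064), to below the 40th percentile of both arrays. The NK genes Klrb1c (-1.11 in spleen, adjusted p = 0.034, and -1.77 in lymph node, adjusted p = 0.01) and, in the lymph node, Klrd1 (-1.53, adjusted p = 0.0041) fell as well. Klrb1c lay below the 40th percentile of every oncogenic Vav1 array, so the sizes of its falls rest on the background level. Klrk1 was at 6.49 to 7.47 in oncogenic Vav1 spleen, against 6.31 to 6.45 in GFP spleen (0.40, adjusted p = 0.24). Klrc1 was at 6.84 to 6.94 in oncogenic Vav1 lymph node, against 6.62 to 6.72 in GFP lymph node (0.22, adjusted p = 0.69). Gzma fell in the lymph node together with Ncr1, Klrb1c and Klrd1. The part of NK cells in the results on Gzma, Gzmb, Gzmk, Prf1 and Nkg7 was not tested.

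The CD8 genes Cd8a (0.15, adjusted p = 0.74) and Cd8b1 (-0.07, adjusted p = 0.85) did not pass in the spleen and fell in the lymph node (-1.61, adjusted p = 0.011 and -1.83, adjusted p = 0.0014). Of 9 T cell markers, 1 rose and 1 fell in the spleen and 4 fell in the lymph node, where their median was -1.21. Their mean was 8.61 to 8.99 in oncogenic Vav1 spleen, against 8.43 and 8.44 in GFP spleen. In the lymph node it was 8.68 and 7.62 with oncogenic Vav1, against 9.38 and 9.33 with GFP. The CD4 T cell list of 3 genes had 1 rise and 1 fall in the spleen (median -0.17) and 2 falls in the lymph node (median -0.99). Its mean was 7.42 to 7.52 in oncogenic Vav1 spleen, against 7.40 and 7.46 in GFP spleen. Cd40lg was at 5.33 to 5.52 in oncogenic Vav1 spleen, against 6.04 to 6.18 in GFP spleen. This gene lay below the 40th percentile of every oncogenic Vav1 array. Cd4 rose in the spleen (1.04, SE 0.24, adjusted p = 0.01) and fell in the lymph node (-0.99, SE 0.27, adjusted p = 0.03). On those lymph node arrays Gzmk and Gzmb rose while T cell markers fell, and Gzma and Cxcr6 fell with them. The part of T cell content in these results was not tested.

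Of 7 B cell markers, all fell in the spleen (median -1.10) and 2 in the lymph node (median -0.37). Of 10 monocyte and macrophage markers, 7 rose in the spleen (median 1.02) and 1 in the lymph node (median 0.15). Their mean was 9.48 to 9.54 in oncogenic Vav1 spleen, against 8.33 and 8.37 in GFP spleen. Cx3cr1 and Ctsc are also transcribed in such cells, and their part in those values was not tested. All 9 neutrophil markers and all 7 proliferation markers rose in both tissues, with medians of 3.33 and 2.43 in spleen and 3.01 and 2.59 in lymph node. Mast cells and basophils can also hold granzyme B, and 5 of their genes were tested. Mcpt8, of basophils, rose in each tissue (0.56, adjusted p = 0.027 and 1.31, adjusted p = 0.00088). It lay below the 40th percentile of every GFP array, so the sizes of its differences rest on the background level. Cpa3 (-1.17, adjusted p = 0.017) and Mcpt4 (-1.39, adjusted p = 0.0014) fell in the lymph node. Fcer1a and Ms4a2, chains of the IgE receptor, were below the 40th percentile of every array.

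**Figure D5:**
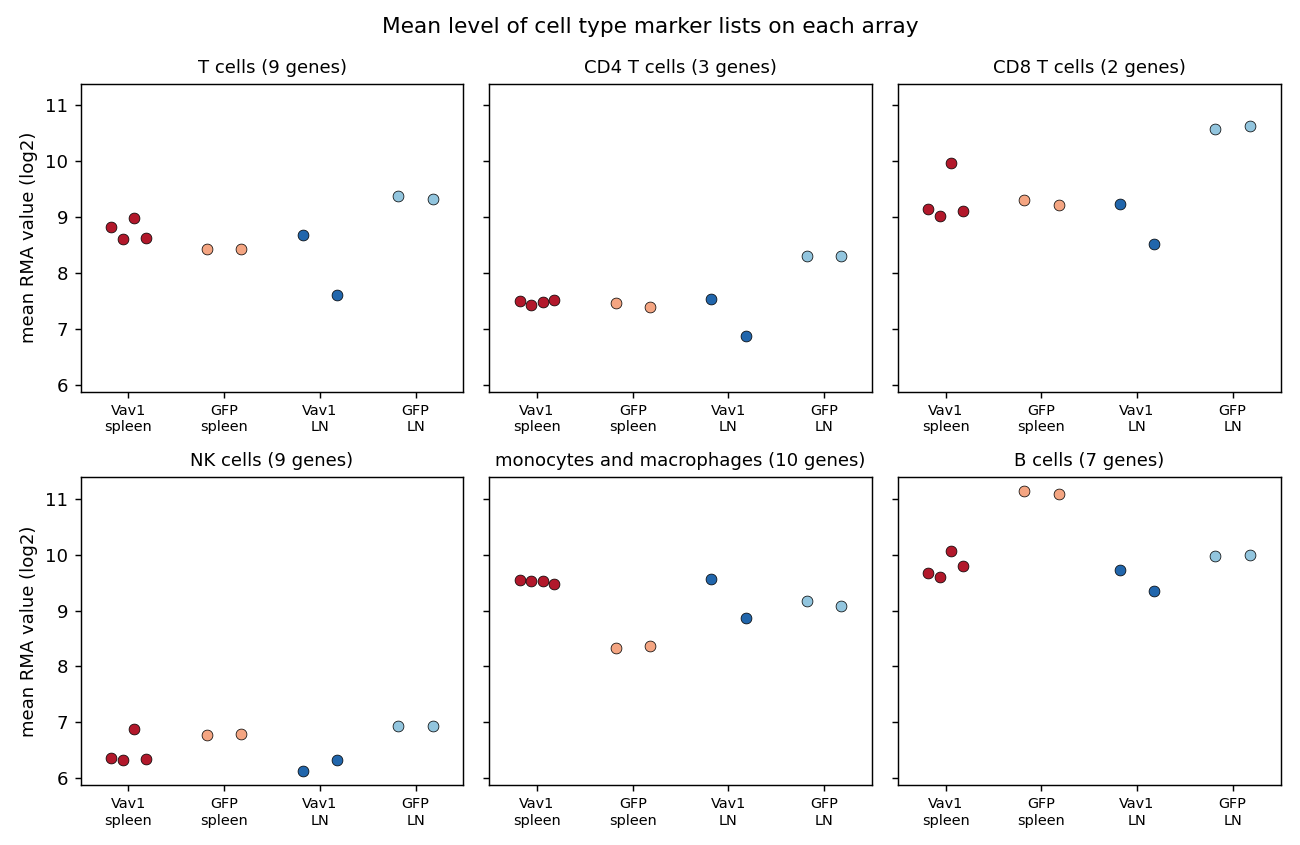
Mean RMA value on the log2 scale of 6 marker lists on each array, by group (LN is lymph node, Vav1 is oncogenic Vav1). NK markers lie lowest in the oncogenic Vav1 lymph node, and T cell markers are lowest on oncogenic Vav1 lymph node replicate 2, at 7.62.

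For the 7 genes that passed in either tissue, the most similar profiles over the 10 arrays were sought by root mean square difference after centring each gene. The nearest to Gzma were Txk and Prkcq, kinases of T cells, with differences of 0.19 and 0.20 on the log2 scale, where Gzma itself ranged over 1.85. Those nearest to Gzmb were Serpina3f (0.23) and Spon1 (0.25), against a range of 3.27. Prf1 was closest to the immunoproteasome gene Psmb9 (0.12) and the interferon-induced gene Bst2 (0.17), against a range of 2.08. Gzmk, with a range of 5.71, was closest to Fcgr4, an Fc receptor gene of myeloid cells (0.56), and the neutrophil gene Ngp (0.57). Cxcr6 was nearest to Ctsw (0.17) and Erg (0.18), Nkg7 to Syt11 (0.25) and Rgs1 (0.27), and Fasl to Smpdl3b (0.19) and the caspase gene Casp1 (0.21).

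Neighbouring genes in RefSeq order were read to see whether rises ran along the chromosome. Gzmk lies between Gzma and Esm1, and Esm1 rose in spleen (1.82, SE 0.34, adjusted p = 0.004) and lymph node (1.66, SE 0.39, adjusted p = 0.014), while Gzma did not. On the other side of Gzma, Gpx8 fell in the lymph node (-1.89, SE 0.25, adjusted p = 0.00055). Neither neighbour of Prf1 or Nkg7 passed in the spleen. In the lymph node Pald1, next to Prf1, fell (-0.58, SE 0.16, adjusted p = 0.027), and the other neighbours of Prf1 and Nkg7 did not pass. Near the chemokine receptors, Ccr8, next to Cx3cr1 (1.40, SE 0.29, adjusted p = 0.0069), and Xcr1, next to Cxcr6 (1.27, SE 0.23, adjusted p = 0.0036), rose in the spleen, and Fyco1, on the other side of Cxcr6, fell in both tissues (-0.71, adjusted p = 0.0042 and -0.60, adjusted p = 0.021). M6pr, next to Klrg1, also rose in the spleen (0.79, SE 0.15, adjusted p = 0.0042). The neighbours of Gzmb were not tested. These neighbour calls stand against 26.8% of genes tested that passed in spleen and 18.7% in lymph node.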

How the data were processed

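RNA from 10 samples was measured on one-colour Affymetrix arrays, 1 array a sample. The deposited log2 values were made by the authors with RMA in R 3.6.3, per the submitters' processing notes, so background correction and normalization had been applied. The array annotation pairs 19572 of 29129 probe sets with 1 symbol, giving 19505 genes, and the highest-mean probe set stands for a gene. The genome build of that annotation is not given in the sources used here. Array values carry no counts, so the number of arrays limits the precision.

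Genes above the 40th percentile of an array on at least 2 arrays were tested (13393), and a group mean below that percentile of each of its arrays was called near background. limma 3.58.1 (statmod 1.5.0, R 4.3.3) fitted 4 group means with a variance trend, and p-values were adjusted over all genes tested (Benjamini-Hochberg, threshold 0.05). Construct contrasts had no block. Tissue contrasts and the interaction had the animal as a random block (correlation -0.113), which moves their fitted values slightly from differences of means. The fit was also run on simulated data with independent normal noise, no correlation within an animal and no array standing apart. That run cannot speak for those features of these arrays. Genes, lists and tests were chosen with earlier results of these data known. Named genes were the 9 members, up to 4 genes of each list with the lowest p-values, the 2 nearest profiles of each member past the threshold, and genes a member's result turns on. RefSeq neighbours were read for every member. Other list genes, such as Zbtb7b, Fas and Lyst, were named after their values were seen. Alternatives varied the filter, normalization, trend, weights, blocks, a covariate and the arrays left out.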

Additional observations from a re-analysis of the deposited data

Results flagged for a closer look

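In oncogenic Vav1 spleen, the Gzmb value of replicate 3 (8.57) lay below the other three arrays (9.20 to 9.33), with a gap of 0.831 of the group's range. The Cx3cr1 value of replicate 1 (7.41) lay above the others (6.39 to 6.52), with a gap of 0.865 of the range. Both exceed Dixon's 95% critical value for 4 values, and chance puts about 1 in 20 groups past it. Replicate 3 also had the highest means of NK markers (6.89), CD8 genes (9.98) and T cell markers (8.99) among the 4 arrays. It had the highest Gzma, Gzmk, Prf1, Nkg7, Fasl and Cxcr6, and the lowest Gzmb and Cx3cr1, with Klrg1 in between. The construct effect differed between tissues for Nkg7 (-2.22, lymph node minus spleen) and for Cxcr6 (-1.84) in the interaction test. Their group values are given above.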

How the results depend on the processing

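Of 913 values of single genes under alternatives, 788 kept direction and side of the threshold, 32 lost the call, 53 gained one and 40 changed sign. Causes were not tested. With only 2 arrays in 3 of the 4 groups, leaving out 1 array moved many counts. Genes past the threshold ranged from 1089 to 5520 in spleen (3596 with all arrays), 1040 to 4650 in lymph node (2500), 384 to 4201 for the interaction (1077), 863 to 4280 for GFP tissues (2144) and 3 to 3812 for oncogenic Vav1 tissues (5). The 9 genes gave 4 to 7 calls in spleen, 1 to 7 in lymph node, 0 to 7 for the interaction, 0 to 4 for GFP tissues and 0 to 6 for oncogenic Vav1 tissues.

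Leaving out 1 array turned signs within these ranges: lymph node Prf1 -0.466 to 0.622, Nkg7 -0.941 to 0.90 and Cx3cr1 -0.732 to 0.594; interaction Fasl -0.63 to 0.0323, Klrg1 -0.589 to 0.266 and Cx3cr1 -1.21 to 0.11; GFP tissues Gzmk -0.408 to 0.897, Fasl -0.533 to 0.129 and Cx3cr1 -0.0794 to 0.435; oncogenic Vav1 tissues Gzmb -1.79 to 0.216, Nkg7 -1.83 to 0.0793, Klrg1 -0.42 to 0.434 and Cx3cr1 -1.04 to 0.281.

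Without animal ONCO3, 8 of the 9 genes passed in spleen, 8 in lymph node, 4 for the interaction and 4 for GFP tissues, and all genes gave 5849, 2726, 4705 and 41 calls for spleen, interaction, GFP tissues and oncogenic Vav1 tissues. Signs turned in lymph node for Nkg7 (0.90) and Cx3cr1 (0.594), in the interaction for Klrg1 (0.275) and Cx3cr1 (0.0187), and between oncogenic Vav1 tissues for Gzma (0.0115), Gzmb (0.0626), Gzmk (0.00759), Nkg7 (0.194), Cx3cr1 (0.19) and Cxcr6 (0.123).

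With the negative control covariate, 1 of the 9 passed in spleen, 1 for the interaction and 3 for GFP tissues. All genes gave 916, 1019 and 2855 calls there, and 94 for oncogenic Vav1 tissues. As given above, this fit leans on the oncogenic Vav1 lymph node pair. Signs turned for Cx3cr1 in spleen (-0.372), for Gzmb (0.885), Klrg1 (0.455) and Cx3cr1 (0.153) in the interaction, for Gzmb (-1.96, adjusted p = 0.0033, range 0.0033 to 0.99), Gzmk (-1.03), Klrg1 (-0.465) and Cx3cr1 (-0.83) between GFP tissues, and for Klrg1 (-0.00975) between oncogenic Vav1 tissues.

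The labels tie the replicate numbers to no batch. By the animal names, same-numbered arrays came from different animals. Replicate 1, for example, was ONCO1 in oncogenic Vav1 spleen and ONCO2 in oncogenic Vav1 lymph node. The numbers were therefore not used as pairs. Same-numbered arrays had correlations of deviations of 0.335 and 0.508 between oncogenic Vav1 tissues, 0.0406 and 0.3 in spleen, -0.0629 in lymph node and -0.0348 between GFP tissues. In a group of 2 arrays the deviations mirror each other, so these correlations could not decide the pairing. With the replicate block, 4 of the 9 passed in spleen, 3 in lymph node, 1 for the interaction and 2 for GFP tissues. All genes gave 2674, 2128, 834 and 2015 calls there, and 0 for oncogenic Vav1 tissues, where Gzma was 0.0536. Fasl lost its call in spleen (0.94, adjusted p = 0.06, range 0.00064 to 0.30), and Gzmb its call in lymph node (adjusted p = 0.05). Quantile normalization and no variance trend each left 1 of the 9 for the interaction, with 1184 and 1042 of all genes. Klrg1 between oncogenic Vav1 tissues was -0.0159 under quantile normalization. Array weights gave 1264 genes in lymph node, and 3879 genes and 4 of the 9 for GFP tissues. The lymph node arrays alone gave 433 genes and 1 of the 9. For oncogenic Vav1 tissues, no filter gave 13 genes and no animal block 9.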
